A study of Mus musculus with 9 samples.

Results

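Muscle atrophy program genes were examined in the tibia of mice 3 days after fracture, with the nonsteroidal anti-inflammatory drug (NSAID) carprofen given at 1 of 2 times of day. The set held 8 genes chosen by name from the known atrophy program, Fbxo32, Trim63, Fbxo30, Foxo1, Foxo3, Mstn, Gadd45a and Klf15, of the 22354 gene symbols in the table. All 8 were present. Foxo1 had 2 rows, of which the brighter over the 9 arrays was used. The active group (3 arrays) was fractured and received 20 mg/kg carprofen, an inhibitor of the cyclooxygenase enzymes, for 3 days at ZT13, the hour counted from lights on. The resting group (3 arrays) was fractured and received the same dose at ZT2. The control group (3 arrays) had neither fracture nor NSAID. The labels describe all mice as females of 2 months, while the methods of the first experiment state 4 months. Tissue was collected at ZT6, and the fracture sites 78 hours after surgery. The last dose lay over 18 hours back for the active and over 30 hours back for the resting mice. The sample was the middle of the tibia, which in the fractured mice included callus and hematoma, measured on Affymetrix Mouse Gene 2.0 ST arrays. No group was fractured without NSAID, so fracture and NSAID cannot be told apart in the comparisons with control. The same holds for isoflurane, buprenorphine and a needle in the medullary canal, which were part of the surgery the paper describes. The hour of the dose and the time since the last dose cannot be told apart in the comparison of active with resting.

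When a muscle fibre is immobilised, denervated or exposed to glucocorticoids, it breaks down its own contractile protein through ubiquitin ligases that mark protein for the proteasome, and through autophagy. The FoxO transcription factors switch on these ligases when signalling from insulin and insulin-like growth factor through AKT falls, and the glucocorticoid receptor, its target Klf15, myostatin and Gadd45a feed into the same program. Most of these genes are also used outside muscle, FoxO factors and Gadd45a among them.

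The samples carried a muscle signal next to that of bone and marrow. The mean log2 signal of 25 adult skeletal muscle markers was 11.04 to 11.34 in active, 10.65 to 11.05 in resting and 10.41 to 10.87 in control arrays. Markers of regenerating fibres averaged 8.14 to 8.65 in active, 8.05 to 8.21 in resting and 5.92 to 6.19 in control arrays. Erythroid markers averaged 7.38 to 8.48 in active, 8.55 to 8.87 in resting and 10.74 to 11.14 in control arrays, so that this signal was lower in every fractured array. Of the neutrophil markers, 10 of 10 passed the test described below as lower in active than in control, and 3 of 10 in resting. All 10 differences were below 0 in resting too, with a median of -0.50. Of the B lymphocyte markers, 7 of 8 passed as lower in each fractured group. Of all rows, 12.1% passed as lower in active and 10% in resting. Markers of some other cells were higher in the fractured arrays. Monocyte and macrophage markers averaged 9.10 to 9.36 in active, 9.10 to 9.46 in resting and 8.37 to 8.75 in control arrays. For fibroblasts and repair matrix, 9 of 10 markers passed as higher in active and 10 of 10 in resting than in control, with median log2 differences of 1.57 and 1.61. Of all rows, 11.8% passed as higher in active and 9.08% in resting. The part of these cells in the values below was not tested. The arrays measured bulk tissue, in which fewer cells of a type and less RNA per cell cannot be told apart. All levels below are the authors' normalized log2 signals, and a difference of 1 is a 2-fold change.

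The 2 muscle ubiquitin ligases that define the program, Fbxo32 and Trim63, were each more than 2-fold higher in both fractured groups than in control. The ligase Fbxo30 and the transcription factor Foxo3 were each more than 2-fold lower in both. Foxo1, Mstn, Gadd45a and Klf15 did not pass the test in either comparison. No member passed the test between active and resting. The test was limma on all 9 arrays with p-values adjusted over all 24367 rows, and the 2 comparisons with control share the control arrays.

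Fbxo32 (atrogin-1, the substrate-binding part of a muscle ubiquitin ligase complex) had log2 signals of 8.66, 8.33 and 8.74 in the active arrays, 8.45, 9.10 and 8.11 in the resting arrays and 7.31, 7.71 and 7.13 in the control arrays. Every fractured array lay above every control array, and the active values lay inside the range of the resting ones. The mean was 8.58 ± 0.22 in active, 8.55 ± 0.51 in resting and 7.38 ± 0.30 in control (SD, n = 3 each). Fbxo32 was 2.29-fold higher in active than in control (log2 difference 1.19, SE 0.24, limma adjusted p = 0.00401) and 2.25-fold higher in resting than in control (1.17, SE 0.24, adjusted p = 0.0058).

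Trim63 (MuRF1, the ligase that marks myosin heavy chain and other thick filament proteins) had log2 signals of 7.83, 7.48 and 7.85 in active, 7.64, 8.34 and 7.40 in resting and 6.85, 6.51 and 6.50 in control. The fractured arrays again all lay above the control arrays. Trim63 was 2.14-fold higher in active than in control (log2 difference 1.10, SE 0.22, limma adjusted p = 0.00393) and 2.25-fold higher in resting than in control (1.17, SE 0.22, adjusted p = 0.00357). Fbxo32 and Trim63 ordered the 6 fractured arrays in the same way, with resting replicate 2 highest and resting replicate 3 lowest for both genes, and active replicates 3 and 1 next below the highest.

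**Figure D1:**
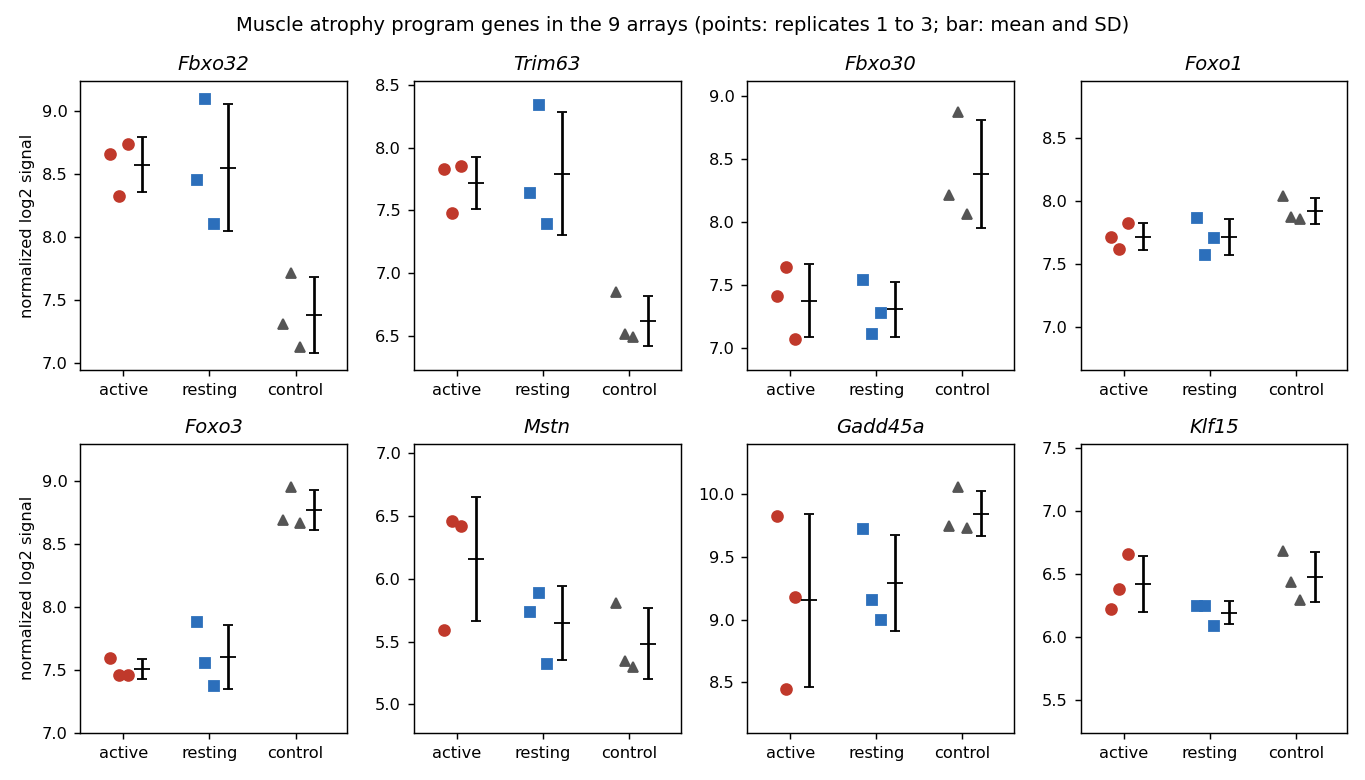
Normalized log2 signal (vertical axes, all spanning the same range) of the 8 genes in the 3 active, 3 resting and 3 control arrays, with points for arrays in replicate order and a bar for the mean and SD. Fbxo32 and Trim63 lie above control in all 6 fractured arrays and Fbxo30 and Foxo3 below it, while Mstn is high in 2 of the 3 active arrays.

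The promoter of Trim63 is shown because it carries next to each other letters that both known drivers of this ligase can bind, the glucocorticoid receptor and FoxO. The window runs from 250 bases before to 50 bases after the transcription start in RefSeq, build GRCm38.p6, at chr4:134314870-134315169 on the plus strand, and the gene lies on chromosome 4 at 134315120 to 134329629. Capitals mark matches to 3 motifs searched on both strands, a forkhead motif (TGTTTAC), the core hexamer of the glucocorticoid receptor element (TGTTCT) and an E-box (CANNTG). N is any base, so the E-box is a general motif, of which myogenic factors bind some forms.
Trim63: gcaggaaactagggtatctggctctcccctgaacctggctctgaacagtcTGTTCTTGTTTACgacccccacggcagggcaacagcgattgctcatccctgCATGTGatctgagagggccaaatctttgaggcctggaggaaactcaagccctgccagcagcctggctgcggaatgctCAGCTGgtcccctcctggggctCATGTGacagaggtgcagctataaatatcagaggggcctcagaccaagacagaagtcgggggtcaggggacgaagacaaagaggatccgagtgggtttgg
The core hexamer lay at -200 to -195 and the forkhead match followed it directly at -194 to -188, with no base shared, and 3 E-boxes lay between -149 and -45. Of 32851 RefSeq mouse promoters of this length, 3.65% held the forkhead letters, 19% the core hexamer and 72.3% an E-box. A core hexamer directly before a forkhead match on the same strand was counted after it had been seen in Trim63, and 1 promoter of the 32851 held it, that of Trim63. A match is a description of the letters and not a measured binding site.

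Fbxo30 (a ubiquitin ligase subunit also called MUSA1, which BMP signalling holds down in mouse muscle) had log2 signals of 7.41, 7.64 and 7.07 in active, 7.54, 7.11 and 7.28 in resting and 8.22, 8.87 and 8.07 in control. No fractured array reached the lowest control array. It was 2.01-fold lower in active than in control (log2 difference -1.01, SE 0.22, limma adjusted p = 0.00597) and 2.11-fold lower in resting than in control (-1.08, SE 0.22, adjusted p = 0.00532), opposite in sign to Fbxo32 and Trim63.

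Foxo3 (a forkhead factor that activates ligase and autophagy genes in muscle and is also active in blood-forming cells) had log2 signals of 7.60, 7.46 and 7.46 in active, 7.88, 7.56 and 7.37 in resting and 8.69, 8.95 and 8.67 in control. The groups with fracture and the control group did not overlap, and the gap between the highest fractured and the lowest control array was wider than the range within any group. Foxo3 was 2.40-fold lower in active than in control (log2 difference -1.27, SE 0.14, limma adjusted p = 9.34e-05) and 2.25-fold lower in resting than in control (-1.17, SE 0.14, adjusted p = 0.000223).

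The promoters of the 2 members that fell are shown beside that of Trim63 because they hold no match to any of the 3 motifs. That of Fbxo30 lies at chr10:11281337-11281636 on the plus strand and that of Foxo3 at chr10:42276646-42276945 on the minus strand, both in the same RefSeq build and window. The Fbxo30 gene runs from 11281330 to 11305750, so its window lies wholly inside the gene, and the bases before the gene were not searched. The Foxo3 gene runs from 42181845 to 42276695, and its outer end falls within its window.
Fbxo30: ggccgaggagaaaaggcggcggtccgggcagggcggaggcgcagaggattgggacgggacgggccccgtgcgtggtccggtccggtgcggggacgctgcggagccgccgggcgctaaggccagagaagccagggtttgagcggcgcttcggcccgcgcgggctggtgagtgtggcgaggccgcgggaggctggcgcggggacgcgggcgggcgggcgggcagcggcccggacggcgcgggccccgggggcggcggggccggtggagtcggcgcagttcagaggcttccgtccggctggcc
Foxo3: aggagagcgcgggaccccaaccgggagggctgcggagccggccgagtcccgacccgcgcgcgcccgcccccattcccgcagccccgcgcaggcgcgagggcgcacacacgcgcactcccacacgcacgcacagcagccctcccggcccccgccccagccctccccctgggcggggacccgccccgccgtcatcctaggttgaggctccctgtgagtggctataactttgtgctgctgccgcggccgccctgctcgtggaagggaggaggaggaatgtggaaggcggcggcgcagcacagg
These 2 windows are rich in G and C, at 79.7% for Fbxo30 and 75% for Foxo3, against 57% for Trim63. Of the 8 members, 7 were matched to a promoter, Fbxo32 being the other, and among those 7 the forkhead letters and the core hexamer were found in Trim63 alone. E-boxes were found in the promoters of Mstn (4), Klf15 (3), Foxo1 (1) and Gadd45a (1) as well. The 3 of Klf15 all read CACGTG, and its window, starting at 90462326, also lies inside its gene (90461043 to 90491803). A link between these letters and the direction of a member was not tested.

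Foxo1 (the forkhead factor that, with Foxo3, activates Fbxo32 and Trim63 in muscle) had log2 signals of 7.71, 7.62 and 7.83 in active, 7.87, 7.57 and 7.71 in resting and 8.04, 7.87 and 7.86 in control. The active arrays lay just below the control arrays and 1 resting array lay within their range. The log2 difference was -0.20 for active minus control (95% confidence interval -0.45 to 0.05, limma adjusted p = 0.247) and -0.21 for resting minus control (-0.46 to 0.04, adjusted p = 0.256). A second, dimmer row of the gene also did not pass, with a log2 difference of -0.37 for active minus control and -0.28 for resting minus control.

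Gadd45a (a growth arrest and DNA damage gene that is induced in denervated mouse muscle) had log2 signals of 9.83, 8.45 and 9.18 in active, 9.72, 9.16 and 9.0 in resting and 9.75, 10.05 and 9.73 in control. Active replicate 1 lay among the control arrays and the other 2 active arrays below them, while all 3 resting arrays lay below the lowest control array, replicate 1 only just. The log2 difference was -0.69 for active minus control (95% confidence interval -1.35 to -0.03, limma adjusted p = 0.133) and -0.55 for resting minus control (-1.21 to 0.11, adjusted p = 0.258).

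Klf15 (a Kruppel-like factor that the glucocorticoid receptor induces and that drives amino acid breakdown) had log2 signals of 6.22, 6.38 and 6.66 in active, 6.25, 6.25 and 6.09 in resting and 6.69, 6.44 and 6.29 in control. The active and control arrays overlapped, and the resting arrays lay just below control. The log2 difference was -0.05 for active minus control (95% confidence interval -0.36 to 0.26, limma adjusted p = 0.852) and -0.28 for resting minus control (-0.59 to 0.03, adjusted p = 0.217).

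Mstn (myostatin, the secreted brake on muscle growth) had log2 signals of 5.59, 6.46 and 6.42 in active, 5.73, 5.89 and 5.32 in resting and 5.81, 5.34 and 5.30 in control. Active replicates 2 and 3 stood above all the other 7 arrays, and active replicate 1 lay within the range of both other groups. The log2 difference was 0.67 for active minus control (95% confidence interval 0.14 to 1.21, limma adjusted p = 0.0697) and 0.17 for resting minus control (-0.37 to 0.70, adjusted p = 0.716). Mstn is among the dimmest 40% of rows by mean signal. Its promoter is shown because it has the most E-boxes of the 7, at chr1:53061390-53061689 on the plus strand in the same RefSeq build, with the E-boxes in capitals.
Mstn: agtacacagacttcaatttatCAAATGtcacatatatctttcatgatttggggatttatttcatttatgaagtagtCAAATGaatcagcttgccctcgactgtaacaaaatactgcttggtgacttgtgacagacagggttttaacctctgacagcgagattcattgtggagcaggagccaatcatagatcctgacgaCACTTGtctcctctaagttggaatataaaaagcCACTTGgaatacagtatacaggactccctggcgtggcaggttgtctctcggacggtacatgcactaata

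Active replicate 1 differed from the other 2 active arrays in the marker levels as well as in Mstn and Gadd45a. Its erythroid markers averaged 8.48, against 7.41 and 7.38 in active replicates 2 and 3, and its B lymphocyte markers averaged 7.20, against 6.62 and 6.76. Without this array, Mstn was higher in active than in control by a log2 difference of 0.96 (limma adjusted p = 0.0070). Gadd45a was then lower by a log2 difference of -1.03 (limma adjusted p = 0.0176). In this fit 6 of the 8 members passed, where 22.2% of all rows did. The array stood apart in these same 2 genes, so the added calls are no separate support. Without active replicate 2 or 3, Mstn differed by 0.52 or 0.54 and Gadd45a by -0.34 or -0.71, without passing. The part of the marker levels in these values was not tested.

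Counted over the members, 2 of 8 were higher in active than in control, where 11.8% of all rows were, and 2 of 8 were lower, where 12.1% of all rows were. In resting against control the same 4 genes passed, 2 of 8 higher beside 9.08% of all rows and 2 of 8 lower beside 10% of all rows. At the threshold of the methods, an unadjusted p under 0.05 (here from limma) with at least a 1.5-fold change, 6 of 8 passed in active against control (16.8% of all rows), with Mstn and Gadd45a added, and 4 of 8 in resting against control (14.3% of all rows). With the methods' t-test in place of limma, 4 of 8 passed this threshold in active against control, without Mstn and Gadd45a. The arrays of the 2 groups did not overlap for 5 of 8 members in active against control (36.5% of all rows) and for 6 of 8 in resting against control (35.3% of all rows). An exact two-sided permutation test of 3 arrays against 3 cannot fall below p = 0.10, which each of these non-overlapping members reached.

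**Figure D2:**
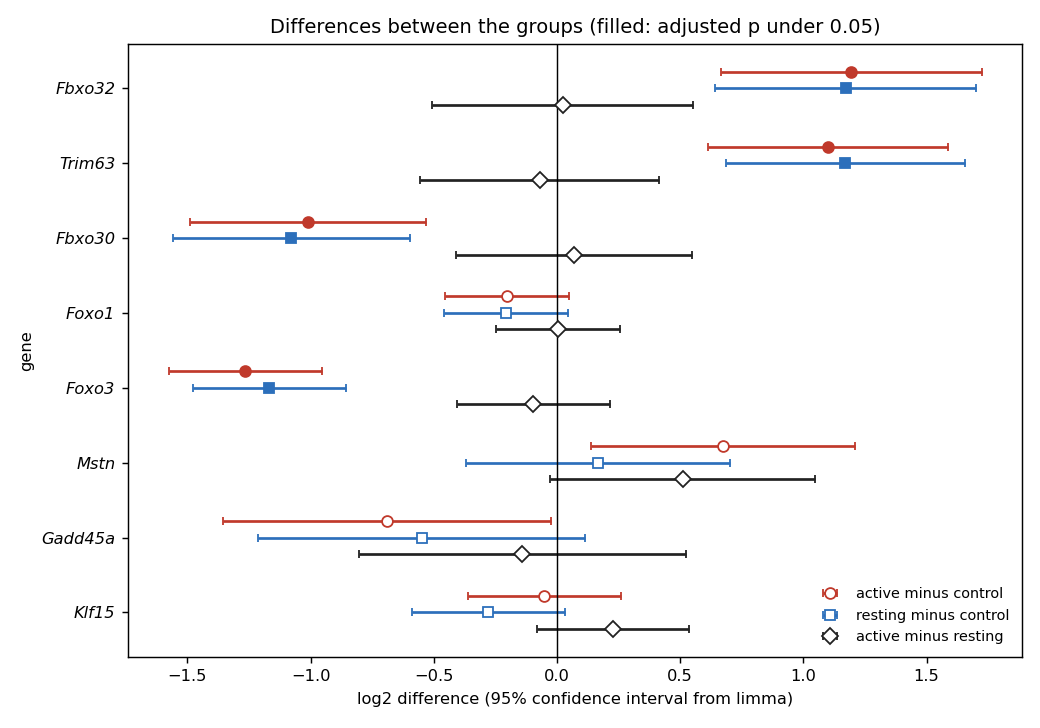
Log2 difference (horizontal axis) with its 95% confidence interval from limma for each gene in active minus control, resting minus control and active minus resting, with filled symbols for an adjusted p under 0.05. The filled symbols are those of Fbxo32, Trim63, Fbxo30 and Foxo3 in the comparisons with control, and all 8 intervals of active minus resting include 0.

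The hour of NSAID administration was compared directly as active minus resting. None of the 8 members passed at an adjusted p under 0.05, where 0% of all rows did, and 0 of 8 passed at the threshold of the methods, where 0.973% of all rows did. At an unadjusted limma p under 0.05, 1489 of 24367 rows and none of the members passed, a share too small for 8 members to differ from it visibly. The arrays of the 2 groups overlapped for all 8 members, and 9.94% of all rows did not overlap.

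The intervals of active minus resting limit how far the ligases and the FoxO factors could differ. For Fbxo32 the log2 difference was 0.02 (95% confidence interval -0.51 to 0.55), for Trim63 -0.07 (-0.56 to 0.41) and for Fbxo30 0.07 (-0.41 to 0.55). For Foxo1 it was 0.00 (-0.25 to 0.25) and for Foxo3 -0.10 (-0.41 to 0.21). For Gadd45a the difference was -0.14 (-0.80 to 0.52) and for Klf15 0.23 (-0.08 to 0.54). The intervals of all of these but Gadd45a left out a 1.5-fold difference in either direction. The largest difference of the 8 was that of Mstn at 0.51 (-0.03 to 1.05, unadjusted p = 0.0606, limma adjusted p = 0.834), which came from active replicates 2 and 3.

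Since muscle adheres to the tibia, the members were also set against the muscle markers of the same array. Of the 25 muscle markers, 14 passed as higher and none as lower in active than in control. In resting against control 3 passed as higher and 1 as lower, with 22 of 25 differences above 0. None of the muscle markers passed between active and resting, with 24 of 25 differences above 0. Subtracting their mean moved the median of all rows to -0.53 in active minus control, -0.22 in resting minus control and -0.32 in active minus resting. On this scale Fbxo32 remained higher by 0.64 in active (limma adjusted p = 0.0166) and by 0.93 in resting (adjusted p = 0.00102) than in control. Trim63 remained higher by 0.55 in active (adjusted p = 0.0353) and by 0.93 in resting (adjusted p = 0.000893) than in control. One score per array was subtracted from all rows, so the rows then share its error.

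Relative to muscle, 2.8% of all rows were higher in active and 4.10% in resting than in control, both ligases among them. Without the subtraction, which moved the median of all rows below 0, these shares were 11.8% and 9.08%. The small share is thus partly built in. Fbxo30, Foxo1, Foxo3, Gadd45a and Klf15 were lower in active than in control on this scale, as were 53.7% of all rows, and Fbxo30, Foxo3 and Gadd45a were lower in resting than in control, as were 12.3% of all rows. Mstn differed by 0.12 in active minus control and by -0.07 in resting minus control. Between active and resting none of the 8 passed, where 1.40% of all rows did.

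**Figure D3:**
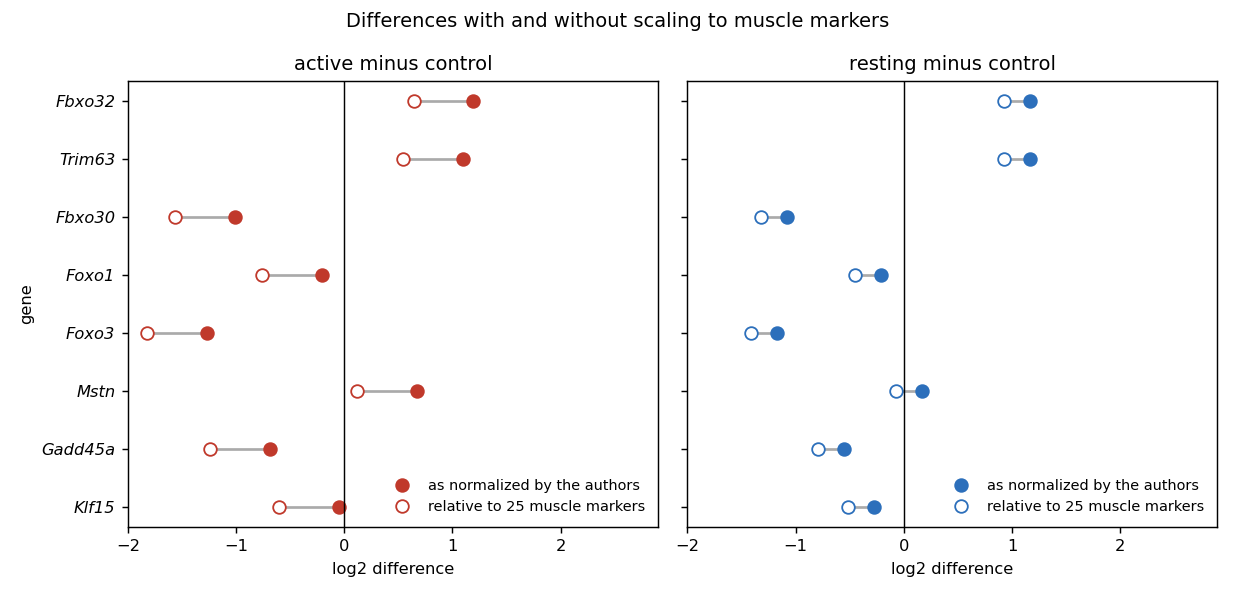
Log2 difference (horizontal axis) of each gene in active minus control and in resting minus control, with filled points for the values as normalized by the authors and open points for values relative to the mean of 25 muscle markers in the same array. Fbxo32 and Trim63 stay above 0 on both scales, at 0.64 and 0.55 in active and 0.93 each in resting relative to muscle.

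The members that fell were lower than control in both fractured groups, and so were marrow markers. All 9 erythroid markers passed as lower in active than in control and 8 of 9 in resting than in control, and 7 of 8 B lymphocyte markers passed as lower in each. Of all rows, 12.1% passed as lower in active and 10% in resting. Foxo3 ordered the groups as the erythroid and B lymphocyte markers did, with control far above both fractured groups. In active replicates 1, 2 and 3, Foxo3 was 7.60, 7.46 and 7.46, and the erythroid mean was 8.48, 7.41 and 7.38. In active and resting, Fbxo30 averaged 7.38 and 7.31 and Foxo3 7.50 and 7.60. The erythroid markers averaged 7.76 and 8.72 there, and the B lymphocyte markers 6.86 and 7.20. The part of marrow content in the fall of Foxo3 and Fbxo30 was not tested.

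**Figure D4:**
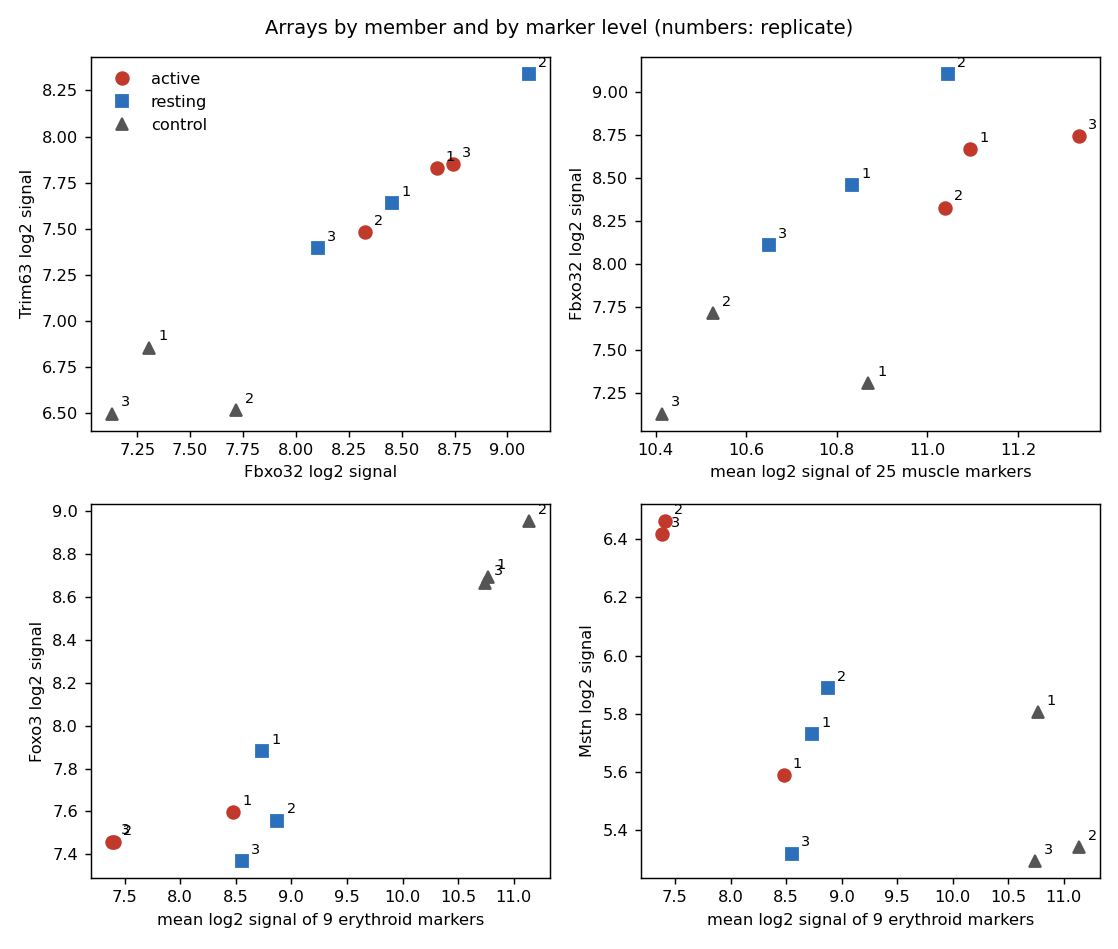
Each point is 1 of the 9 arrays (active, resting and control, with replicate numbers), plotted by log2 signals of Trim63 against Fbxo32, of Fbxo32 against the mean of 25 muscle markers, and of Foxo3 and Mstn against the mean of 9 erythroid markers. Active replicate 1, at an erythroid mean of 8.48, lies with the resting arrays rather than with active replicates 2 and 3 in the panel of Mstn.

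The genes most like each member over the 9 arrays were found among 22353 other symbols by Pearson's r, as a description, since the arrays fall into groups and a top rank among so many symbols was selected. For Fbxo32 they were Eif4ebp1, B230120H23Rik and Ipo13 (r 0.98 each), where Eif4ebp1 encodes the translation repressor 4E-BP1, and for Trim63 they were Tead4, Ipo13 and Ankrd23 (0.98 each). Ipo13, an importin, was thus shared by both ligases. For Fbxo30 they were Smchd1, Marchf5 and Srbd1 (0.99 each), and for Foxo3 Azin1, Chek2 and Ly6g6f (0.99 each). For Foxo1 they were Fcrl5, Lman2l and Med20 (0.94 to 0.96), and for Gadd45a Snrnp70, Slc3a2 and Tmc4 (0.97 to 0.98). For Mstn they were Septin4, Ppp1r1a and Kcnj2 (0.95 to 0.98), and for Klf15 Gpt, Gstm7 and Fam57b (0.94 to 0.96), where Gpt encodes alanine aminotransferase.

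The counts of the pathway lists that follow stand beside 11.8% of all rows higher and 12.1% lower in active than in control, and 9.08% higher and 10% lower in resting than in control. Around the members, further ubiquitin ligases of muscle were partly higher. Of 14 ligases and ubiquitin genes, 4 were higher and none lower in active than in control, and 3 were higher and none lower in resting than in control. Those were Nedd4 (log2 difference 0.83 in active and 0.89 in resting), Trim54 (1.25 and 0.97) and Trim55 (1.0 and 0.68), the last 2 being close relatives of Trim63, and in active also Fbxo40 (0.57). The list's median was 0.04 in active and 0.08 in resting against control, where the median of all rows was 0.02 in both, so most of the list stayed near the rest. Fbxo21, which encodes a ligase of the atrophy program, differed by 0.11 and 0.16, and Mul1, a mitochondrial ligase, by -0.15 and -0.05, without passing.

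Of 31 subunits of the proteasome, which degrades what the ligases mark, 14 were higher in active and 10 in resting than in control, by small amounts. None passed as lower, and 31 and 29 of the 31 differences were above 0. The median difference was 0.34 in active and 0.32 in resting. Among the first of the list, Psmd11 differed by 0.33 and 0.32, Psmc4 by 0.29 and 0.38, and Psma1 by 0.01 and -0.11, and of these only Psmc4 in resting passed. Without active replicate 1, 9 subunits passed in active against control, with the median at 0.34.

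The autophagy and lysosome genes went both ways. Of 16, 4 were higher and 4 lower in active than in control, and 4 higher and 3 lower in resting. Bnip3, a mitochondrial receptor of autophagy, was higher by 0.89 and 0.56, while Map1lc3b (0.01 and -0.08) and Gabarapl1 (0.29 and 0.24), which encode proteins of the autophagosome membrane, did not pass.

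Targets of FoxO were likewise mixed. Of 11 targets and other FoxO factors, 1 was higher and 3 lower in active than in control, and 2 higher and 3 lower in resting. Eif4ebp1 was higher by 0.62 and 0.64. Pdk4, the kinase that blocks pyruvate oxidation, was higher by 1.75 in resting (limma adjusted p = 0.0088) and differed by 1.14 in active (adjusted p = 0.055). Sesn1, a stress sensor upstream of mTOR, was lower by a log2 difference of -0.63 in resting and differed by -0.32 in active, without passing there. The differences of Pdk4 and Sesn1 between active and resting, -0.61 and 0.31, did not pass either.

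In the insulin, IGF and AKT arm, which holds FoxO factors out of the nucleus, 4 of 12 genes were higher and 1 lower in active than in control, and 2 higher and 1 lower in resting. Igf1, the growth factor, was higher by 0.88 and 0.77. Akt1 was higher by 0.41 in active and differed by 0.31 in resting, and Irs2, an adaptor of the insulin receptor, was lower in both, with log2 differences of -0.73 and -0.56.

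In the myostatin and activin pathway, of 14 genes other than Mstn, 4 were higher and 1 lower in active than in control, and 5 higher and 1 lower in resting. Inhba, the subunit of activin A, was higher by 1.12 and 1.14, and Fst, encoding follistatin, the secreted inhibitor of myostatin and activin, by 0.88 and 0.65. The receptor gene Acvr2b differed by 0.42 and 0.20 without passing.

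Of 12 genes of the glucocorticoid receptor and the targets of the receptor and of Klf15, 1 was higher and 1 lower in active than in control, and 2 were higher in resting. The receptor gene Nr3c1 differed by -0.05 and -0.14 and its targets Fkbp5 by 0.21 and 0.07 and Tsc22d3 by -0.04 and 0.00, none of them passing. Ddit4, a stress gene that lowers mTOR signalling, was higher by 0.81 and 0.62 and was named after its values were seen.

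Of the 9 pathway lists, the denervation and Gadd45 genes had the largest median, 1.0 in active and 0.80 in resting against control. Of 12, 7 were higher in each and none lower. Myog, the myogenic factor that raises both ligases in denervated mouse muscle, was higher by 3.50 and 3.49, but it is also a gene of regenerating fibres, of whose 8 markers 6 were higher in each fractured group, and the part of regeneration in this list was not tested. Hdac4, a deacetylase of the denervation response, differed by 0.10 and 0.21 and Atf4, an activator of Gadd45a in mouse muscle, by -0.03 and -0.11, neither passing. The relatives of Gadd45a, Gadd45b and Gadd45g, were named after their values were seen, and they were higher by 0.97 and 0.70 and by 1.16 and 1.21, while Gadd45a differed by -0.69 and -0.55.

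Of 10 inflammatory triggers of atrophy, 2 were higher and 2 lower in active than in control, and 3 higher and none lower in resting. Tnfrsf12a, the TWEAK receptor that denervated muscle displays, was higher by 1.5 and 1.42 and Il6 by 0.85 and 0.98, while Tnf differed by -0.29 and -0.20 without passing. In none of the 9 lists did a gene pass between active and resting, with or without active replicate 1. Without that array, 0.144% of all rows passed between active and resting, among them 5 of 9 erythroid, 2 of 10 neutrophil and 1 of 8 B lymphocyte markers, all lower in active. The array stood apart by its higher marrow markers, so these calls are no separate support. With all 9 arrays, 0% of all rows passed between active and resting. Without active replicate 1, the counts of the 8 lists other than the proteasome in active against control moved by at most 1 in either direction.

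**Figure D5:**
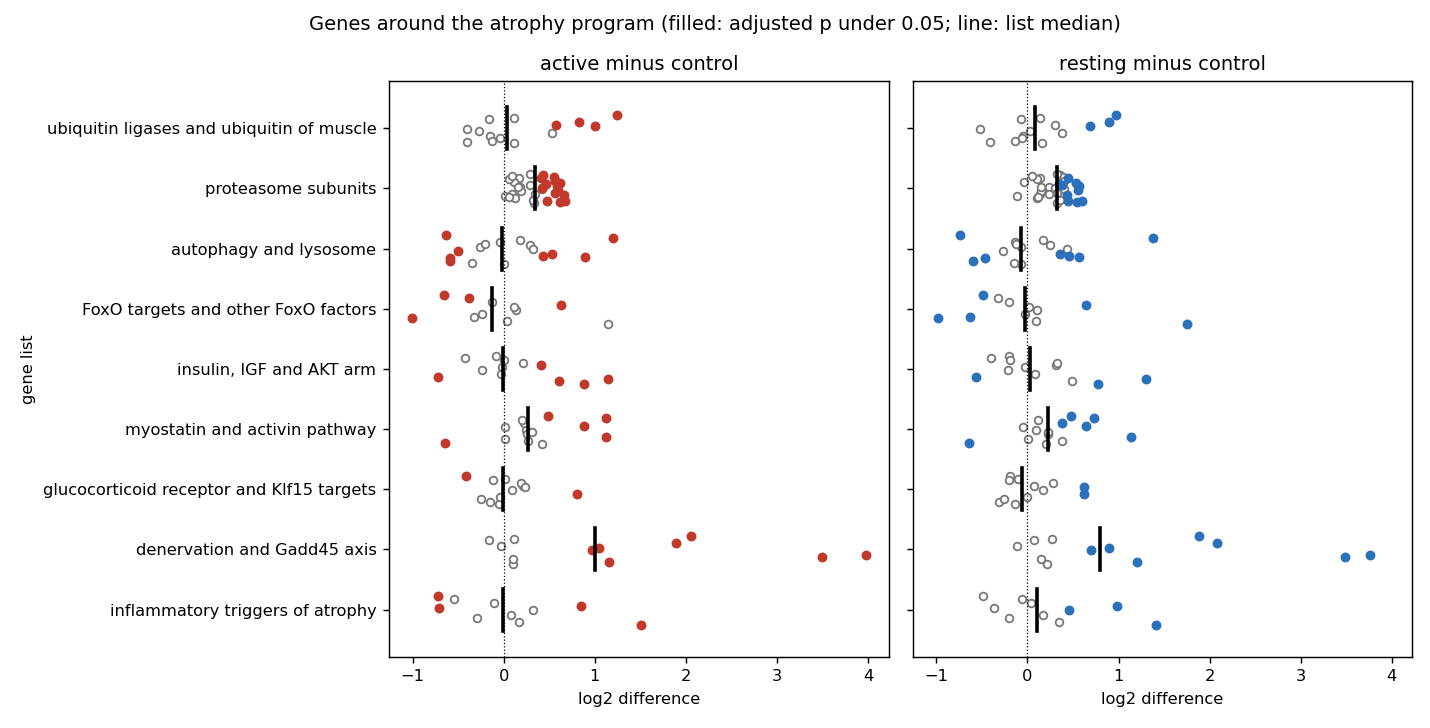
Log2 difference (horizontal axis) of each gene of 9 lists in active minus control and in resting minus control, with filled points for an adjusted p under 0.05, open points for the rest and a line at the list's median. The denervation and Gadd45 list lies farthest to the right, at medians of 1.0 and 0.80, and the proteasome list forms a narrow group around 0.34 and 0.32.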

How the data were processed

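Total RNA (100 ng) from each tibia sample was labelled and hybridised to the arrays. The authors normalized the signals in GeneSpring GX and kept entities flagged as present, and they deposited normalized log2 values as 24367 rows carrying gene symbols and as 41345 probe sets. All 24367 rows were found among the probe sets with the same values. No source used here names the algorithm, log base or build, and a log2 scale was taken from the range of the values (2.31 to 13.81). Replicate numbers are those of the gene-named table, since the tables number the active and resting arrays differently. Symbols turned into dates in the table were restored from the annotation of the matching probe set.

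The 8 members and 19 lists of 234 symbols (231 with a row) were chosen with earlier results of these data known. A single model of all 9 arrays was fitted with limma 3.58.1 (R 4.3.3, lmFit, eBayes), with 6 residual degrees of freedom, with Benjamini-Hochberg adjustment over all rows and a threshold of 0.05. The steps were tested on simulated data. Genes named were all members, the first 3 with a row in each pathway list and the 3 genes most like each member, and others were chosen after their values were seen. The methods speak of RNA pools and of individual mice, so p-values measure the spread between these samples, which may be technical in part. Arrays have no read depth; their number sets the precision. Same-numbered arrays of different groups did not deviate together (correlations -0.25 to 0.17). Promoters came from RefSeq GRCm38.p6. Python 3.11.15 with matplotlib 3.10.9 drew the figures. As alternatives the analysis was repeated with the probe set table, with the methods' t-test, on only the 6 arrays compared, with a filter on dim rows, quantile normalization, median centring, an intensity trend, the mean of the rows of a gene, the muscle markers as a reference, a replicate block and leaving out each array. A block with the probe set table's numbers, and the lists without active replicate 1, were added after seeing the data.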

Additional observations from a re-analysis of the deposited data

How the results depend on the processing

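The count of members past the threshold stayed at 4, 4 and 0 (active against control, resting against control and active against resting) under the probe set table, quantile normalization, median centring, an intensity trend, the mean of the rows of a gene, a fit of only the 6 arrays compared and the filter on dim rows, which drops Mstn and so gives no value for it. With the methods' t-test and adjustment over all rows, 2 members passed in active against control (Trim63 and Foxo3), 1 in resting against control (Foxo3) and 0 in active against resting, with adjusted p of 0.0528 for Fbxo32 and 0.131 for Fbxo30 in active, and 0.133 for Fbxo32, 0.11 for Trim63 and 0.107 for Fbxo30 in resting. At the methods' own threshold that t-test gave 4, 4 and 0. Relative to the muscle markers 7 members passed in active against control (56.5% of all rows), 5 in resting against control (16.4% of all rows) and 0 in active against resting (1.40% of all rows). The subtraction lowered every difference by 0.55 in active minus control and by 0.24 in resting minus control. The members it added, Foxo1, Gadd45a and Klf15 in active and Gadd45a in resting, were all lower than control. The higher counts are thus partly built in. With the replicate block the counts were 4, 4 and 0 with either table's numbers, so the block changed no count.

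Leaving out single arrays gave 4 to 6 members in active against control (6 without active replicate 1), 4 to 4 in resting against control and 0 to 0 in active against resting. Of 429 single values under the alternatives, 396 kept direction and call, 22 changed sign, 6 passed newly and 5 no longer passed. Klf15 in active minus control ran from -0.17 to 0.055 over the left-out arrays, and Mstn in resting minus control was -0.074 relative to muscle. In active minus resting, values relative to muscle changed sign for Fbxo32 (-0.29), Fbxo30 (-0.24), Foxo1 (-0.31) and Klf15 (-0.086). They were -0.38 for Trim63, -0.41 for Foxo3, -0.45 for Gadd45a and 0.20 for Mstn, where the median of all rows was -0.32. On this scale the active arrays of Trim63 and Foxo3 lay just below the resting ones, and the share of all rows that did so was not counted. Foxo1 was -0.0022 with quantile normalization and -0.041 as the mean of its rows. Over the left-out arrays, active minus resting ran from -0.20 to 0.30 for Fbxo32, -0.27 to 0.20 for Trim63, -0.066 to 0.22 for Fbxo30, -0.067 to 0.079 for Foxo1, -0.21 to 0.042 for Foxo3 and -0.48 to 0.21 for Gadd45a.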
